A study of Mus musculus with 63 samples.

Results

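Meg3, Rian, Mirg, Dlk1, Rtl1 and Dio3 are 6 genes of 1 imprinted region on mouse chromosome 12. They were taken by symbol from the gene count tables of 22 RNA-seq libraries, where they are 6 of 47517 symbols, and all 6 were present and passed the filter on low counts in every model. They were not selected on a cut-off of any measured value, but they were chosen by symbol and locus with results of these data known, among them their levels across the 10 groups. The p-values given for them are therefore a description of these libraries and carry no independent weight.

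The series holds 63 mouse samples (strain C57BL/6) on the transcription factor YY1, of which the 22 RNA-seq libraries form 10 groups and the other 41 samples were not used here. Extended pluripotent stem (EPS) cells, a cultured state kept in LCDM medium, were set against embryonic stem (ES) cells, which were cultured in 2i (n = 3 each). EPS cells with a short hairpin RNA against Yy1 (shYy1) were set against EPS cells with a control hairpin (shCtrl), and ES cells with a Yy1 overexpression construct (oeYy1) against ES cells with a control construct (oeCtrl), with n = 2 each. Titles of 4 further groups of 2 libraries name the same 4 lines after 6 days in a medium called F4H, although the table names of the day 6 controls carry no construct name, and whether these controls held one is not certain. Cultures of both states were on a feeder layer of mouse embryonic fibroblasts or on Matrigel, and the labels do not say which library came from which. They do not say either whether replicates were separate cultures or whether a line was 1 clone, and a p-value here covers no more than the spread among the libraries, which may be technical.

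The Dlk1-Meg3 region, also called the Dlk1-Dio3 domain, is a textbook imprinted cluster. On the paternally inherited chromosome it expresses the protein-coding genes Dlk1, Rtl1 and Dio3. On the maternally inherited chromosome it expresses the long noncoding RNAs Meg3, Rian and Mirg, the last 2 of which host small nucleolar RNAs and microRNAs. Methylation of a control region upstream of Meg3, laid down in the male germ line, keeps the noncoding RNAs silent on the paternal copy. In mouse pluripotent cell lines the level of Meg3 is often read as a sign of whether that imprint is intact. The counts are not split by allele, so none of the values below tells which parental copy was read.

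In the RefSeq annotation of build GRCm38.p6 the genes follow each other on chromosome 12 as Dlk1 (start 109452485, end 109463336), Meg3 (start 109540996, end 109571729), Rtl1 (start 109564900, end 109604418), Rian, Mirg and Dio3. Yy1 itself lies on the same chromosome (start 108792945, end 108820148), and Dlk1 begins 632.3 kb beyond its end. The annotated span of Rtl1 shares 6830 bases with that of Meg3 and 474 bases with that of Rian. Rtl1 is read from the opposite strand to these RNAs and no strand setting of the counting is stated, so counts given to Rtl1 cannot be told apart from counts of an antisense transcript.

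The start-site windows of 3 genes are shown because Meg3, Dlk1 and Dio3 did not follow each other in the libraries. Each runs from 250 bases before to 50 bases after a start in the RefSeq table of GRCm38.p6, on the plus strand of chromosome 12. The core of the YY1 recognition sequence, GCCAT, was searched on both strands and is in capitals where found (as ATGGC, its reverse complement). For Meg3 the window is chr12:109540746-109541045, for Dlk1 chr12:109452573-109452872 and for Dio3 chr12:110278980-110279279. The Dlk1 window belongs to a start inside the gene span given above, so it covers neither the first base of that span nor the bases upstream of it.
Meg3: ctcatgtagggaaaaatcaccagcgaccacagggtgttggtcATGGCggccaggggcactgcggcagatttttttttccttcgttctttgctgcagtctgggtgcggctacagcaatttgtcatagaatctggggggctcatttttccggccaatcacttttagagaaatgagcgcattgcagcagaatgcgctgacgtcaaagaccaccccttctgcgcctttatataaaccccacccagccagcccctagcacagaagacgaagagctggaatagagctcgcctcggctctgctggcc
Dlk1: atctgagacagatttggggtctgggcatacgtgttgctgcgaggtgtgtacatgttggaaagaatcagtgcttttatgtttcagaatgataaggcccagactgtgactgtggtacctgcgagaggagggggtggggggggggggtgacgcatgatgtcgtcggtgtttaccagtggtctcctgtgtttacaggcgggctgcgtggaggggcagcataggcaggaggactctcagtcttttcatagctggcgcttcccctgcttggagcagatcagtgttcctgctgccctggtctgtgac
Dio3: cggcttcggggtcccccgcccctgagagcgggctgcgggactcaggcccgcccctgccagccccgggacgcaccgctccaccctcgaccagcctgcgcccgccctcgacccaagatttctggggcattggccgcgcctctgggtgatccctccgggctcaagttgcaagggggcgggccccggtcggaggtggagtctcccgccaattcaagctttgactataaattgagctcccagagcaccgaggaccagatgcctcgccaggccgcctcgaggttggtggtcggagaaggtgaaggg

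The first Meg3 window held 1 GCCAT, on the minus strand and beginning at position -208 from the annotated start, and the Dlk1 and Dio3 windows held none. Of the other windows, that of Rian held 1 and those of Mirg and of a second Meg3 start held none. Among 32851 windows of the same 300 bases, 40.5% held GCCAT on either strand, so its presence in a single window is common. The longer form GCCATNTT, which contains the core, was in 6.1% of all windows and in none of those of Meg3, Rian, Mirg, Dlk1 or Dio3. Binding of YY1 to these sites was not analysed here.

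Between Dlk1 and Dio3 the count tables list 61 microRNA symbols and 13 small nucleolar RNA symbols. RefSeq gives 113 mature microRNA names for them, with 104 different seeds, of which 9 are shared by a pair of names. A few are printed to show what the noncoding transcripts carry, 5′ to 3′ with the seed (bases 2 to 8) in capitals. The first lies within the Meg3 span, the next 3 within the Rtl1 span on the opposite strand, miR-370-3p within Rian, miR-379-5p and miR-1193-5p between the spans of Rian and Mirg, and the last 3 within Mirg. In the mouse, microRNAs read antisense to Rtl1 such as miR-127 and miR-136 are known to cut its message.
miR-770-5p: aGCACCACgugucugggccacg
miR-433-3p: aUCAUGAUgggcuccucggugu
miR-127-3p: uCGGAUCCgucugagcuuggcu
miR-136-5p: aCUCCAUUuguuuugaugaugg
miR-370-3p: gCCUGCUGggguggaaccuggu
miR-379-5p: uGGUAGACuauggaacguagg
miR-1193-5p: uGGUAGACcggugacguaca
miR-453: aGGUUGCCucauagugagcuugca
miR-496a-5p: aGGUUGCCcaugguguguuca
miR-410-3p: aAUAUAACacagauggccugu

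The pair miR-379-5p and miR-1193-5p share the seed GGUAGAC, and the Mirg pair miR-453 and miR-496a-5p share GGUUGCC. Mature microRNAs are too short for these libraries. Counts at the 61 hairpin symbols together came to 2 to 34 reads per library and are not used as a measure of them.

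Depth was 13672061 to 20782348 gene counts per library, and 3 counts, taken as the floor for a gene at 0, equal 0.144 to 0.219 CPM (counts of a gene per 1e6 gene counts of its library). Yy1, the targeted gene, followed the labels in undifferentiated cells with 70.5 CPM in both EPS shYy1 libraries and 134 CPM in both EPS shCtrl libraries. It stood at 934 and 941 CPM in ES oeYy1 cells, against 120 and 124 CPM in ES oeCtrl cells. On day 6 it stood at 114 and 110 CPM in EPS shYy1 cells, against 129 and 123 CPM in EPS shCtrl cells, and this difference was not called (log2 -0.03 ± 0.05 SE, adjusted p = 0.567). A difference in Yy1 was thus not detected in the hairpin line on day 6, while oeYy1 cells kept 331 and 324 CPM, against 120 and 126 CPM in oeCtrl cells. The lines also differed in sex-linked RNA. Summed Y-linked levels were 155 and 158 CPM in EPS shYy1 cells, against 3.40 and 3.06 CPM in EPS shCtrl cells, and 27.7 and 26.9 CPM in ES oeYy1 cells, against 111 and 131 CPM in ES oeCtrl cells. X-linked genes summed to 46676 and 47436 CPM in EPS shYy1 cells, against 27527 and 27995 CPM in EPS shCtrl cells. Summed Y-linked levels on day 6 were 176 and 169 CPM in EPS shYy1 cells, against 17.4 and 16.45 CPM in EPS shCtrl cells. They were 71.8 and 66.0 CPM in day 6 ES oeYy1 cells, against 101 and 105 CPM in day 6 ES oeCtrl cells. Sums of EPS shCtrl and ES oeYy1 cells were thus higher on day 6 than before. A difference between stages cannot be told apart from a difference in the cells that make up a line. A difference between the lines other than the construct cannot be told apart from the construct in any of these contrasts.

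In undifferentiated cells the noncoding RNAs differed in the same direction as Yy1 between each manipulated line and its control. Meg3, Rian, Mirg and the overlapping Rtl1 were lower in EPS cells depleted of Yy1 and higher in ES cells that overexpressed it. Dlk1 was not called in either contrast, and Dio3 was called with overexpression and not with depletion. In all, 4 of the 6 genes were called in EPS shYy1 against EPS shCtrl cells, where 28.5% of all 16440 genes tested were called. In ES oeYy1 against ES oeCtrl cells 5 of the 6 were called, against 32.0% of all genes. Meg3 was also called between EPS and ES cells and between EPS shCtrl and EPS cells, where Yy1 was not. The lines differed in sex-linked RNA too, and the part of Yy1 in any of these differences was not tested. Called means that the adjusted p (Benjamini-Hochberg, over all genes tested) was under 0.05 in edgeR's quasi-likelihood test. Fold changes are on the log2 scale with their SE, and positive values mean higher in the group named first.

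**Figure D1:**
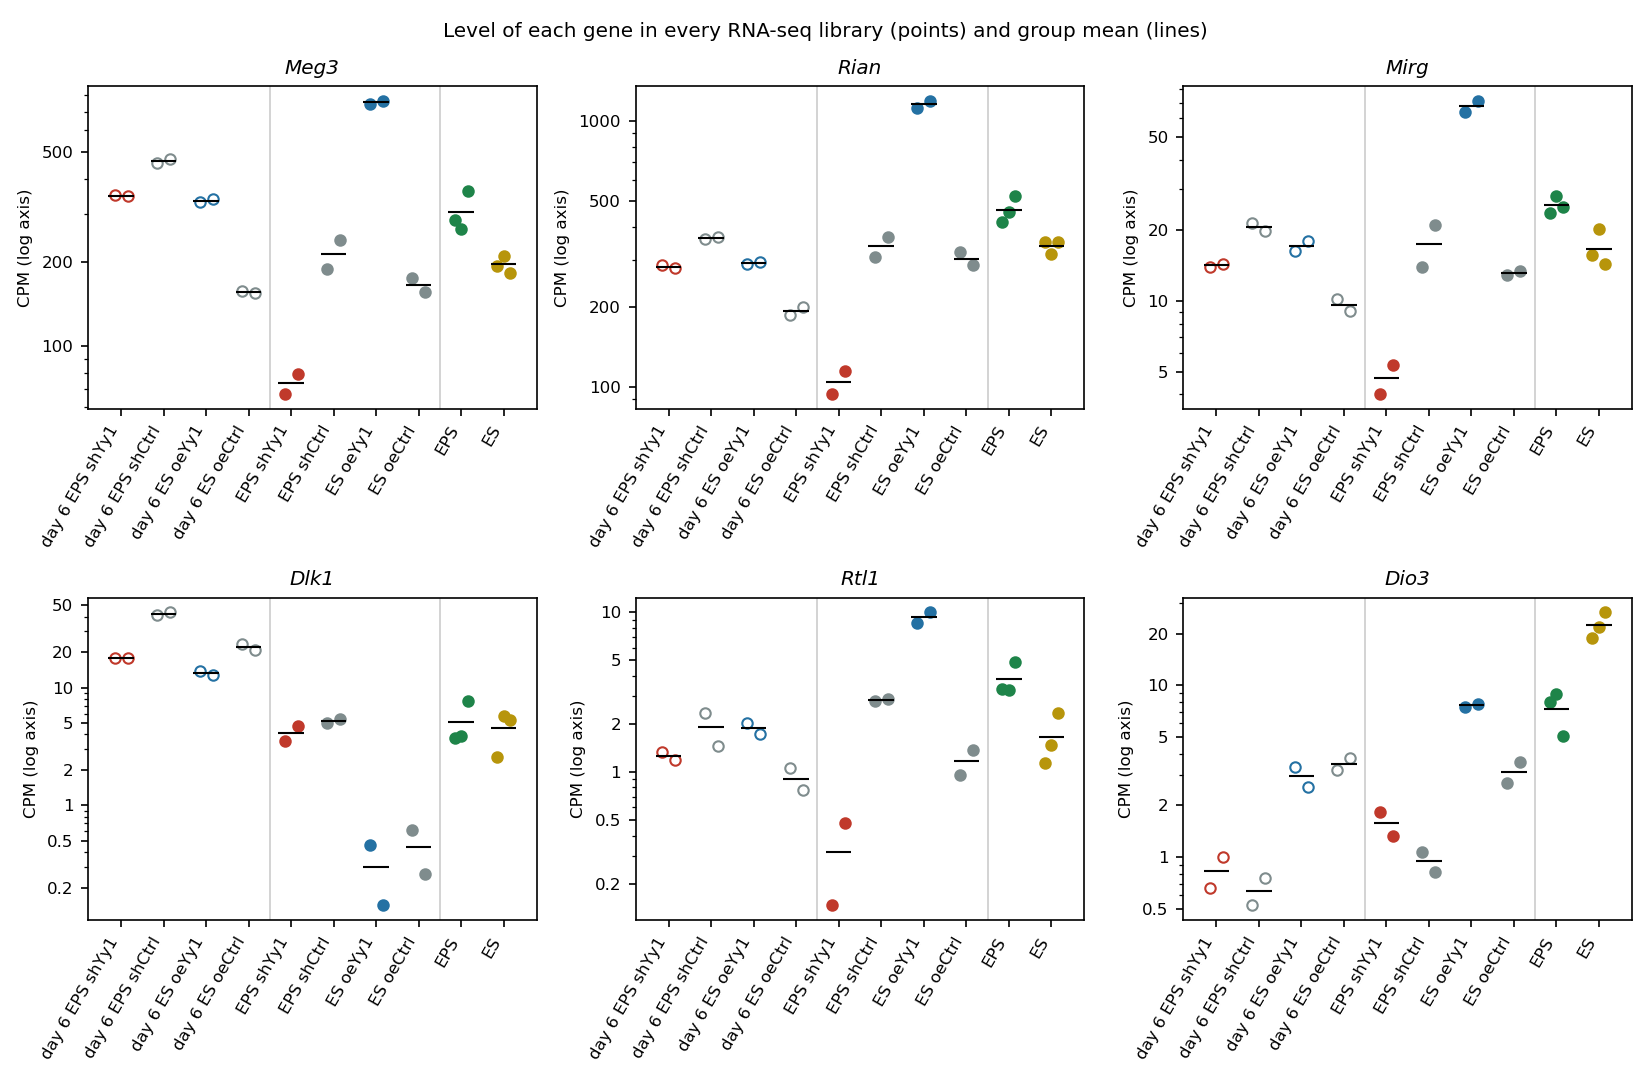
Level of each of the 6 genes in CPM (vertical log axis) in each of the 22 libraries (points), by group (horizontal axis), with lines for the group means. Open points are day 6 libraries. Meg3, Rian, Mirg and Rtl1 are highest in ES oeYy1 cells and lowest in EPS shYy1 cells, whereas Dlk1 is highest in the day 6 groups and Dio3 in ES cells.

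Meg3, the long noncoding RNA that begins the maternal transcripts, had 67.1 and 79.2 CPM in EPS shYy1 cells, against 189 and 242 CPM in EPS shCtrl cells. The groups did not overlap, though the share of all genes without overlap was not counted, here or for such statements below. Meg3 was lower in the depleted cells by a log2 fold change of -1.63 ± 0.15 (adjusted p = 1.02e-06). In ES oeYy1 cells it had 743 and 766 CPM, against 175 and 157 CPM in ES oeCtrl cells. It was higher in both overexpressing libraries than in any other library of the series (log2 2.18 ± 0.15, adjusted p = 4.38e-08) and ranked 24 of all genes by p in that contrast.

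Rian, which hosts a cluster of C/D box small nucleolar RNAs in its introns, followed the same course. It had 94.1 and 114 CPM in EPS shYy1 cells, against 309 and 368 CPM in EPS shCtrl cells. Both depleted libraries were below every other library of the series, and the log2 fold change was -1.77 ± 0.14 (adjusted p = 1.1e-07). With overexpression Rian had 1125.5 and 1196 CPM in ES oeYy1 cells, against 321 and 287 CPM in ES oeCtrl cells (log2 1.93 ± 0.14, adjusted p = 4.38e-08). These were again the highest libraries of the series.

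Mirg, the microRNA host at the far end of the noncoding transcripts, was the least abundant of the 3 by CPM, a scale that does not correct for transcript length. It had 4.02 and 5.36 CPM in EPS shYy1 cells, against 13.9 and 21.1 CPM in EPS shCtrl cells (log2 -1.96 ± 0.24, adjusted p = 1.81e-05). With overexpression it had 63.7 and 71.4 CPM in ES oeYy1 cells, against 12.9 and 13.5 CPM in ES oeCtrl cells (log2 2.35 ± 0.22, adjusted p = 8.26e-07). As for Meg3 and Rian, neither contrast had overlapping libraries. Under each alternative way of processing the counts, the calls and directions of Meg3, Rian, Mirg and Rtl1 in these 2 contrasts held.

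Some markers of other cell types were called in these 2 contrasts, to be read beside the 28.5% and 32.0% of all genes. In EPS shYy1 against EPS shCtrl cells 6 of 21 fibroblast markers were higher and none lower, 1 of 16 markers of primitive and visceral endoderm was higher and 10 were lower, and 5 of 13 trophoblast markers were higher and 1 lower. In ES oeYy1 against ES oeCtrl cells 3 of the 21 fibroblast markers were higher and none lower, 1 of the 16 endoderm markers was higher and 1 lower, and 4 of 13 trophoblast and 2 of 10 neural markers were lower. Of the 14 pluripotency markers 7 were higher and 3 lower with depletion, and 5 were higher and 2 lower with overexpression. Their part in the levels of the noncoding RNAs was not tested.

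The small nucleolar RNAs of the region, within Rian and beyond its annotated end, gave few reads but the same order. Counts at the 13 symbols of the region summed to 8 and 4 reads in EPS shYy1 libraries, against 24 and 18 reads in EPS shCtrl libraries. They summed to 69 and 79 reads in ES oeYy1 libraries, against 12 and 6 reads in ES oeCtrl libraries. Of these, 2 symbols inside the Rian span passed the filter on low counts. DQ267102 was lower in EPS shYy1 cells (log2 -2.22 ± 0.72, adjusted p = 0.0287) and higher in ES oeYy1 cells (log2 2.80 ± 0.65, adjusted p = 0.00315). Gm24564 was higher in ES oeYy1 cells (log2 3.26 ± 0.61, adjusted p = 5.96e-04) and not called in EPS shYy1 cells (log2 -1.45 ± 0.86, adjusted p = 0.224). Whether these reads come from the small RNAs or from their host transcript cannot be told apart.

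Rtl1, a retrotransposon-derived protein needed in the placenta, rests on far fewer reads. It had 2 and 8 reads (0.146 and 0.482 CPM) in EPS shYy1 libraries, against 44 and 49 reads (2.77 and 2.88 CPM) in EPS shCtrl libraries. It was lower in the depleted cells (log2 -3.14 ± 0.48, adjusted p = 1.29e-04), and 1 of the 2 depleted libraries was at or under the floor of 3 counts. Its level was 8.57 and 10.0 CPM in ES oeYy1 cells, against 0.963 and 1.37 CPM in ES oeCtrl cells (log2 2.97 ± 0.37, adjusted p = 1.59e-05). Reads given to Rtl1 thus moved in the direction of the noncoding RNAs whose spans it overlaps, and not opposite to them. Whether these reads came from Rtl1 or from an antisense transcript cannot be told apart.

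Dlk1, a transmembrane ligand-like protein related to Notch ligands, did not share this course. It had 3.51 and 4.70 CPM in EPS shYy1 cells, against 4.98 and 5.41 CPM in EPS shCtrl cells (log2 -0.40 ± 0.40, adjusted p = 0.492). In the ES lines with constructs it was near the floor, with 7 and 2 reads in oeYy1 libraries and 9 and 4 reads in oeCtrl libraries (log2 -0.51 ± 0.79, adjusted p = 0.664). Such counts cannot show a change of moderate size.

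Dio3, the deiodinase that inactivates thyroid hormone, was below its ES level in all lines with constructs. It had 1.83 and 1.32 CPM in EPS shYy1 cells, against 1.07 and 0.823 CPM in EPS shCtrl cells (log2 0.66 ± 0.41, adjusted p = 0.243). With overexpression the level was 7.52 and 7.82 CPM in ES oeYy1 cells, against 2.68 and 3.59 CPM in ES oeCtrl cells (log2 1.28 ± 0.30, adjusted p = 0.00353). This last call was lost when oeCtrl replicate 1 was left out (adjusted p = 0.0564).

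**Figure D2:**
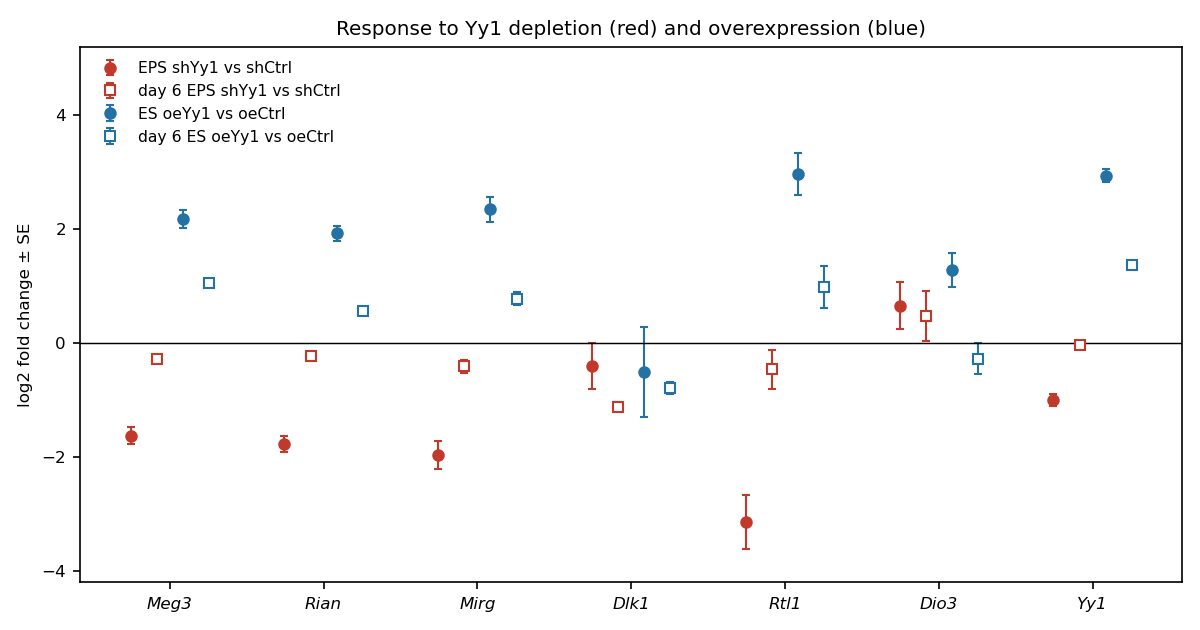
Log2 fold change ± SE (vertical axis) of each of the 6 genes and of Yy1 (horizontal axis), for shYy1 against shCtrl in EPS cells (red) and oeYy1 against oeCtrl in ES cells (blue), undifferentiated (filled circles) and on day 6 (open squares). Meg3, Rian, Mirg and Rtl1 lie below 0 in red and above 0 in blue, with day 6 values nearer to 0, while Dlk1 lies below 0 in all 4 contrasts.

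On day 6 of F4H the same contrasts were smaller for the noncoding RNAs. In EPS shYy1 against EPS shCtrl cells 4 of the 6 genes were called, where 61.3% of all 15927 genes tested were called. In ES oeYy1 against ES oeCtrl cells 5 of the 6 were called, against 41.9% of all genes. These calls rest on the spread between day 6 replicates, whose counts differed by a chi-square of 1.84 to 3.09 per degree of freedom within a pair, against 2.47 to 31.07 in undifferentiated pairs.

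Meg3 on day 6 had 349 and 347 CPM in EPS shYy1 cells, against 455 and 474 CPM in EPS shCtrl cells (log2 -0.28 ± 0.04, adjusted p = 4.59e-08). Rian (log2 -0.23 ± 0.04) and Mirg (log2 -0.41 ± 0.11) were also called lower in these shYy1 cells, in which Yy1 itself was not called. In ES oeYy1 cells Meg3 had 331 and 337 CPM, against 157 and 155 CPM in ES oeCtrl cells (log2 1.05 ± 0.05, adjusted p = 7.66e-28), with Rian at log2 0.56 ± 0.05 and Mirg at log2 0.78 ± 0.12. Rtl1 was not called in the first contrast (log2 -0.46 ± 0.34, adjusted p = 0.25). In the second it was at the edge of the test (log2 0.99 ± 0.38, adjusted p = 0.0297). It had 29 and 25 reads in oeYy1 libraries, against 21 and 13 reads in oeCtrl libraries. The call was kept in 6 of 10 alternatives. DESeq2 did not make it (adjusted p = 0.147), nor did fits without either day 6 oeYy1 library or without day 6 oeCtrl replicate 2.

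Dlk1 was the gene that parted from the others on day 6. It had 17.9 and 17.7 CPM in EPS shYy1 cells, against 41.0 and 43.7 CPM in EPS shCtrl cells (log2 -1.12 ± 0.09, adjusted p = 6.69e-17). In ES oeYy1 cells it had 13.8 and 12.7 CPM, against 23.5 and 20.8 CPM in ES oeCtrl cells (log2 -0.78 ± 0.11, adjusted p = 9.67e-09). Dlk1 was therefore lower in both manipulated lines than in their controls, with no overlap between libraries, where Meg3 was lower in the hairpin line and higher in the overexpressing line. Dio3 was not called in either contrast (log2 0.48 ± 0.43 for shYy1 and -0.27 ± 0.27 for oeYy1, adjusted p = 0.347 and 0.448).

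Markers of other cell types were called in these day 6 contrasts, where 61.3% of all genes were called for shYy1 and 41.9% for oeYy1. The 14 mesendoderm markers summed to 350 and 364 CPM in day 6 EPS shYy1 cells, against 828 and 815 CPM in day 6 EPS shCtrl cells, and to 926 and 999 CPM in day 6 ES oeYy1 cells, against 483 and 482 CPM in day 6 ES oeCtrl cells. Of these 14 mesendoderm markers tested 1 was higher and 12 were lower in EPS shYy1 cells, and 10 were higher and none lower in ES oeYy1 cells, each against its control. The trophoblast list, which shares Eomes and Hand1 with it, summed to 6519 and 6605 CPM in day 6 EPS shYy1 cells, against 3404 and 3409 CPM in day 6 EPS shCtrl cells. Of 13 trophoblast markers tested 9 were higher and 3 lower in EPS shYy1 cells, and 4 were higher and 7 lower in ES oeYy1 cells. Pluripotency markers were 6 higher and 1 lower of 14 in EPS shYy1 cells, and 1 higher and 10 lower in ES oeYy1 cells. Of 15 endoderm markers 7 were higher and 6 lower in EPS shYy1 cells, and 3 were higher and 10 lower in ES oeYy1 cells. The fibroblast markers summed to 2268 and 2255 CPM in day 6 EPS shYy1 cells, against 1165 and 1168 CPM in day 6 EPS shCtrl cells, and to 1918 and 1823 CPM in day 6 ES oeYy1 cells, against 2505 and 2417 CPM in day 6 ES oeCtrl cells. Of 20 fibroblast markers tested, 9 were higher and 7 lower in EPS shYy1 cells. In ES oeYy1 cells 5 of them were higher and 9 lower. The part of any of these markers in the differences of Dlk1 and Meg3 was not tested. In bulk libraries fewer cells of a type and less RNA per cell cannot be told apart.

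The 2 day 6 controls, EPS shCtrl and ES oeCtrl, differed in all 6 genes, in a contrast where 64.1% of all genes were called. Meg3 was higher in day 6 EPS shCtrl cells (log2 1.42 ± 0.04, adjusted p = 1.13e-35), and so were Rian (0.77 ± 0.04), Mirg (0.94 ± 0.11) and Dlk1 (0.78 ± 0.08). Dio3 was the exception, with 0.523 and 0.755 CPM in day 6 EPS shCtrl cells, against 3.21 and 3.77 CPM in day 6 ES oeCtrl cells (log2 -2.57 ± 0.33, adjusted p = 1.18e-09). Rtl1 (log2 0.90 ± 0.36, adjusted p = 0.0263) lost its call when day 6 EPS shCtrl replicate 1 was left out (log2 0.51, adjusted p = 0.354). In the same contrast 10 of 14 mesendoderm markers were higher and 2 lower, 12 of 14 pluripotency markers were lower and none higher, and 3 of 13 trophoblast markers were higher and 9 lower in day 6 EPS shCtrl cells. Their part in the differences of the 6 genes was not tested.

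EPS and ES cells without constructs differed in 5 of the 6 genes, where 30.6% of all genes were called. The noncoding RNAs were modestly higher in EPS cells and Dio3 was lower. Meg3 had 284, 265 and 362 CPM in EPS cells, against 195, 211 and 184 CPM in ES cells (log2 0.68 ± 0.12, adjusted p = 3.92e-04). Rian had 418, 454 and 521 CPM in EPS cells, against 350, 317 and 352 CPM in ES cells (log2 0.51 ± 0.11, adjusted p = 0.00159). Neither gene had overlapping libraries, and Mirg (log2 0.68 ± 0.17, adjusted p = 0.00666) and Rtl1 (log2 1.26 ± 0.29, adjusted p = 0.00343) stood higher too. Yy1 itself was not called between these states (log2 0.02 ± 0.09, adjusted p = 0.907).

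Dlk1 had 3.71, 3.85 and 7.74 CPM in EPS cells, against 2.58, 5.71 and 5.31 CPM in ES cells, and the groups overlapped (log2 0.21 ± 0.32, adjusted p = 0.662). Dio3 had 7.97, 8.90 and 5.05 CPM in EPS cells, against 18.8, 21.7 and 26.7 CPM in ES cells (log2 -1.53 ± 0.22, adjusted p = 5.38e-05). All 3 ES libraries were above every other library of the series for Dio3. These 2 groups also differed in fibroblast RNA. Of 22 fibroblast markers all but S100a4 had reads in every EPS and ES library, and the 22 together summed to 416 to 1257 CPM in EPS libraries and 2917 to 5362 CPM in ES libraries. The EPS library with the highest fibroblast sum had the lowest Dio3 of its group and the highest Dlk1, whereas the ES library with the highest sum had the highest Dio3 of its group and not the highest Dlk1. In ES oeYy1 and ES oeCtrl libraries the sum was 18.7 to 50.2 CPM. The part of feeder RNA in these values was not tested.

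The control lines with constructs were not the same as the cells without. Against EPS cells, EPS shCtrl cells were called in 4 of the 6 genes, where 56.4% of all genes were called. Meg3 (log2 -0.62 ± 0.14), Rian (-0.58 ± 0.12) and Mirg (-0.68 ± 0.20) were lower in EPS shCtrl cells, though without shCtrl replicate 1 Meg3 came to -0.41 and Mirg to -0.38, where Mirg was no longer called (adjusted p = 0.151). Without shCtrl replicate 2 Mirg came to -1.07. Dio3 was lower by far (log2 -3.10 ± 0.33, adjusted p = 8.08e-07), while Dlk1 (-0.08 ± 0.36) and Rtl1 (-0.55 ± 0.31) were not called.

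Against ES cells, ES oeCtrl cells were called in 2 of the 6, where 50.6% of all genes were called. Dio3 (log2 -2.88 ± 0.28, adjusted p = 5.6e-07) and Dlk1 (log2 -3.41 ± 0.52, adjusted p = 4.11e-05) were lower in ES oeCtrl cells. Dlk1 had 0.619 and 0.261 CPM there, against 2.58, 5.71 and 5.31 CPM in ES cells. All 21 fibroblast markers tested were also lower in ES oeCtrl than in ES cells (median log2 -8.99), and 19 of 21 were lower in EPS shCtrl than in EPS cells (median log2 -6.19). In EPS shCtrl cells the fibroblast sum was 35.0 to 62.1 CPM. Dlk1 stood there at 4.98 and 5.41 CPM, within the range of the EPS libraries. The part of feeder RNA in these Dlk1 values was not tested, and it cannot be told apart from other differences between the lines. For Meg3, Rian and Mirg the ES oeCtrl values were lower by 0.21 to 0.40 in log2 and not called, although Meg3 (adjusted p = 0.0374) and Mirg (adjusted p = 0.0454) passed when ES replicate 3 was left out. Mirg also passed with the replicate number as a block (adjusted p = 0.00982). Meg3 also passed without the filter on low counts and with only the groups compared.

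After 6 days of F4H Dlk1 was higher in each of the 4 lines. It rose to 17.9 and 17.7 CPM in EPS shYy1 cells, against 3.51 and 4.70 CPM before (log2 2.15 ± 0.18), and to 41.0 and 43.7 CPM in EPS shCtrl cells, against 4.98 and 5.41 CPM before (log2 2.88 ± 0.17). In ES oeYy1 cells the log2 change was 5.34 ± 0.31 and in ES oeCtrl cells 5.65 ± 0.27, against 2 to 9 reads per library before. Between 72.7 and 75.4% of all 17207 genes were called in these comparisons, and a library kit is named in the labels of day 6 only, so stage and library preparation cannot be told apart. All 14 pluripotency markers were lower on day 6 in each line. Of 20 fibroblast markers tested 18 were higher in EPS shYy1, 18 in EPS shCtrl, 16 in ES oeYy1 and 19 in ES oeCtrl cells, and at most 1 was lower in any line. By line, 11 to 14 of 14 mesendoderm markers were higher and up to 2 lower, and 10 to 11 of 13 trophoblast markers were higher and 1 to 3 lower. Of 16 endoderm markers 9 to 12 were higher and 1 to 5 lower. The part of these markers in the rise of Dlk1 was not tested.

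The noncoding RNAs did not rise in every line. In EPS shYy1 cells all 6 genes were called between day 6 and undifferentiated cells (75.4% of all genes), with Meg3 up by log2 2.299 ± 0.12, Rian by 1.496 ± 0.10 and Mirg by 1.63 ± 0.20. In EPS shCtrl cells 3 were called (74.1% of all genes), and Meg3 was higher on day 6 (0.96 ± 0.11) while Rian (-0.04 ± 0.10) and Mirg (0.09 ± 0.16) were not called. Without EPS shCtrl replicate 2, however, Rian (0.20, adjusted p = 0.024) and Mirg (0.53, adjusted p = 0.00142) were called higher too, so that contrast with Meg3 rests on 1 library. In ES oeYy1 cells all 6 were called (72.7% of all genes), with Meg3 (-1.24 ± 0.11), Rian (-2.06 ± 0.10) and Mirg (-2.04 ± 0.16) lower on day 6. In ES oeCtrl cells 3 were called (73.0% of all genes), among them Rian (-0.65 ± 0.10) and Mirg (-0.44 ± 0.18) but not Meg3 (-0.08 ± 0.11). The call of Mirg there was lost in 5 alternatives, each library left out among them (adjusted p up to 0.182). Meg3 thus rose in both EPS lines and fell in ES oeYy1 cells, and the day 6 libraries spanned 155 to 474 CPM of Meg3, against 67.1 to 766 CPM in the same lines before.

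Rtl1 was higher on day 6 in EPS shYy1 cells (log2 1.97 ± 0.49, adjusted p = 0.00118) and lower in ES oeYy1 cells (-2.37 ± 0.30, adjusted p = 3.78e-07). Without EPS shYy1 replicate 2 the first value was 3.10. In EPS shCtrl cells it was barely called (-0.71 ± 0.31, adjusted p = 0.0452), and most alternatives did not call it. Its value was -1.07 without day 6 EPS shCtrl replicate 1 and -0.41 without day 6 EPS shCtrl replicate 2. Dio3 was lower on day 6 in ES oeYy1 cells (-1.44 ± 0.26, adjusted p = 4.9e-05) and, at the edge of the test, in EPS shYy1 cells (-0.87 ± 0.37, adjusted p = 0.0373). The value in EPS shYy1 cells came to -0.58 without day 6 EPS shYy1 replicate 1 and was then not called (adjusted p = 0.272).

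The change of each Yy1 effect between stages was tested directly, with 16 libraries in 1 model. For the hairpin 5 of the 6 genes were called, where 41.5% of all genes were called. The effect on Meg3 differed by log2 1.34 ± 0.16 (adjusted p = 2.02e-06), on Rian by 1.53 ± 0.14, on Mirg by 1.54 ± 0.26 and on Rtl1 by 2.68 ± 0.58, the positive sign standing for a smaller decrease on day 6. For overexpression 5 of the 6 were called, where 37.6% of all genes were called. The effect on Meg3 differed by -1.16 ± 0.15 (adjusted p = 1.05e-05), on Rian by -1.41 ± 0.14, on Mirg by -1.60 ± 0.24 and on Rtl1 by -2.02 ± 0.51, that is, a smaller increase on day 6. The hairpin effect on Dlk1 (-0.73 ± 0.26, adjusted p = 0.0277) was a larger decrease on day 6, a call kept in 10 of 14 alternatives. This call was lost without EPS shYy1 replicate 2 (-0.49), without either day 6 EPS shYy1 library and without day 6 EPS shCtrl replicate 2. The overexpression effect on Dio3 (-1.59 ± 0.38, adjusted p = 0.00221) was called lower on day 6 than before it. The effect of each manipulation on Yy1 changed in the same sense (0.95 ± 0.10 for the hairpin and -1.60 ± 0.10 for overexpression).

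The balance between the noncoding RNAs also differed by stage. There were 0.825 and 0.808 Rian reads for each Meg3 read in day 6 EPS shYy1 libraries, against 1.40 and 1.44 in undifferentiated EPS shYy1 libraries. The ratio was 0.794 and 0.776 in day 6 EPS shCtrl libraries, against 1.64 and 1.53 in undifferentiated ones. It was 0.876 and 0.875 in day 6 ES oeYy1 libraries, against 1.51 and 1.56 in undifferentiated ones. It stayed highest in ES oeCtrl cells, at 1.18 and 1.29 on day 6, against 1.83 in both undifferentiated libraries. All 8 day 6 libraries were below all 14 undifferentiated ones, which ranged from 1.40 to 1.92. The ratio of Mirg to Rian showed no such step, at 0.0455 to 0.0608 on day 6 and 0.0403 to 0.0637 in undifferentiated libraries. As for the levels, stage and library preparation cannot be told apart for these ratios.

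**Figure D3:**
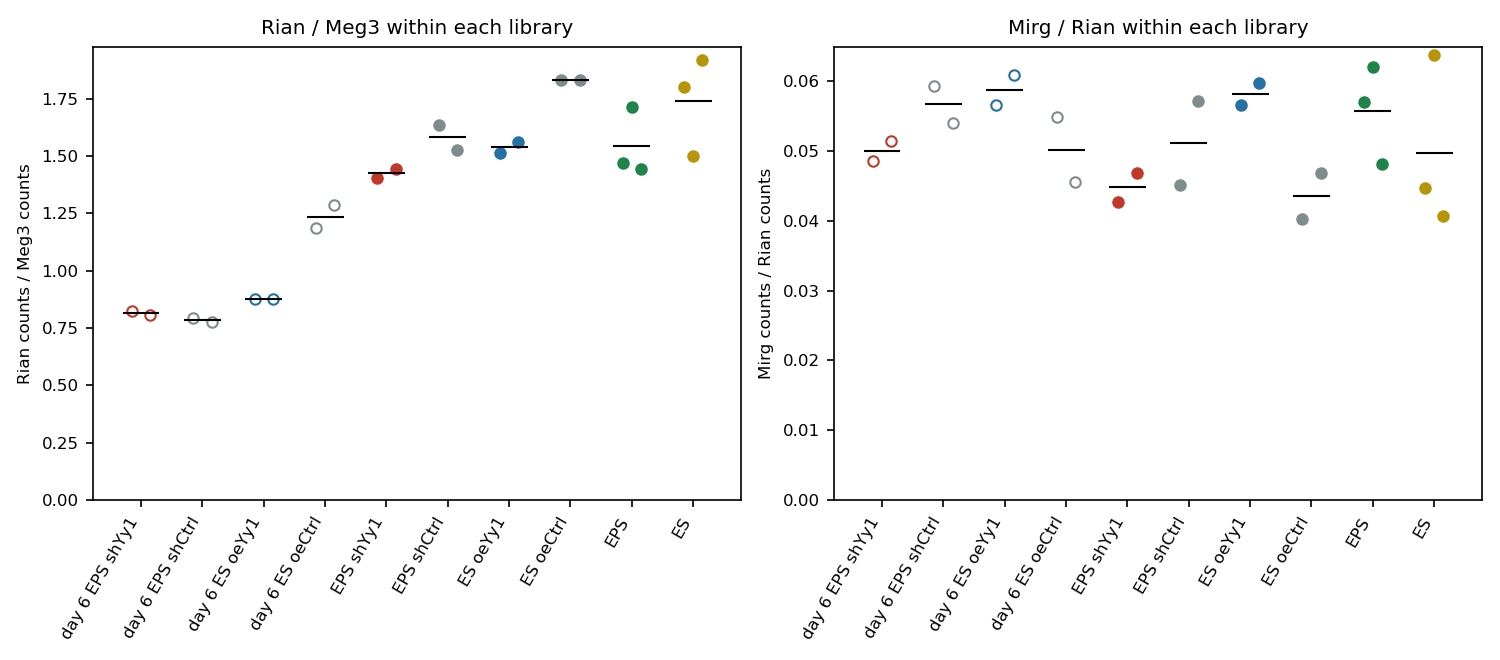
Ratio of Rian to Meg3 read counts (left, vertical axis) and of Mirg to Rian read counts (right, vertical axis) in each library (points) by group (horizontal axis), with lines for group means and open points for day 6. The left ratio is 0.776 to 1.29 in day 6 libraries and 1.40 to 1.92 in undifferentiated ones, and the right ratio overlaps between stages.

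Ordered by mean level, Meg3 ran from 755 ± 16.2 CPM in ES oeYy1 cells (SD, n = 2) through day 6 EPS shCtrl (465 ± 12.9), day 6 EPS shYy1 (348 ± 1.2), day 6 ES oeYy1 (334 ± 4.68) and EPS cells (303 ± 51.2, n = 3). Below these came EPS shCtrl (215 ± 37.4), ES (197, n = 3, libraries at 184 to 211), ES oeCtrl (166 ± 12.9), day 6 ES oeCtrl (156 ± 1.59) and EPS shYy1 cells (73.2 ± 8.60). The libraries of day 6 ES oeYy1 and EPS, of EPS shCtrl and ES, and of ES oeCtrl and day 6 ES oeCtrl overlapped, and the other neighbours in this order did not. Rian, Mirg and Rtl1 had the same highest and the same lowest group. For Dlk1 the 4 day 6 groups came first, from 42.3 ± 1.87 CPM in day 6 EPS shCtrl cells to 13.3 ± 0.75 CPM in day 6 ES oeYy1 cells. For Dio3 ES cells came first (22.4 ± 3.99 CPM) and day 6 EPS shCtrl cells last (0.639 ± 0.164 CPM).

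Over the 10 group means, on the log2 scale, Pearson's r was 0.99 between Rian and Mirg, 0.97 between Rian and Rtl1 and 0.87 between Meg3 and Rian. It was -0.03 between Meg3 and Dlk1 and 0.04 between Meg3 and Dio3. These coefficients describe 10 points that share libraries and lines, and they carry no test. Among 11098 genes of at least 5 CPM on average the 5 whose pattern was most like that of Meg3 were Mirg (0.91), Exog (0.89), Slc38a9 (0.89), Cbarp (0.87) and Rian. Slc38a9, a lysosomal amino acid transporter, had 16.5 CPM in ES oeYy1 cells and 8.60 CPM in EPS shYy1 cells, a far narrower range than Meg3. Yy1 ranked 41 in likeness to Meg3 (r = 0.74). Most like Dlk1 were Oaz2 (0.98), an antizyme that restrains polyamine synthesis, Ppil3 (0.98), Cacna2d1 (0.98), Pkdcc (0.96) and Sorbs3 (0.96). Pkdcc, a secreted protein kinase, had 145 CPM in day 6 EPS shCtrl cells and 0.166 CPM in ES oeYy1 cells.

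Protein-coding neighbours of the region did not move as a block with it. Their calls are to be read beside 28.5% of all genes with depletion and 32.0% with overexpression. Within 1 Mb on either side of the span from Dlk1 to Dio3, 21 protein-coding neighbours other than Yy1 were tested. In EPS shYy1 against EPS shCtrl cells 3 of these were called, namely Mok, a kinase gene (log2 1.74 ± 0.15), Ppp2r5c, a phosphatase subunit (0.49 ± 0.13), and Amn, which anchors the cubilin receptor (-1.79 ± 0.55). The median log2 change of the 21 was 0.16, against -0.01 over all genes and -1.70 over the 6 genes of the region. In ES oeYy1 against ES oeCtrl cells 8 of the 21 were called, 5 higher and 3 lower, with a median of 0.04, against 0.01 over all genes and 2.06 over the 6. Amn (3.86 ± 0.81) and Eml1 (2.33 ± 0.60) were higher, and Ppp2r5c (-0.66 ± 0.13) and Mok (-0.61 ± 0.16) were lower.

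**Figure D4:**
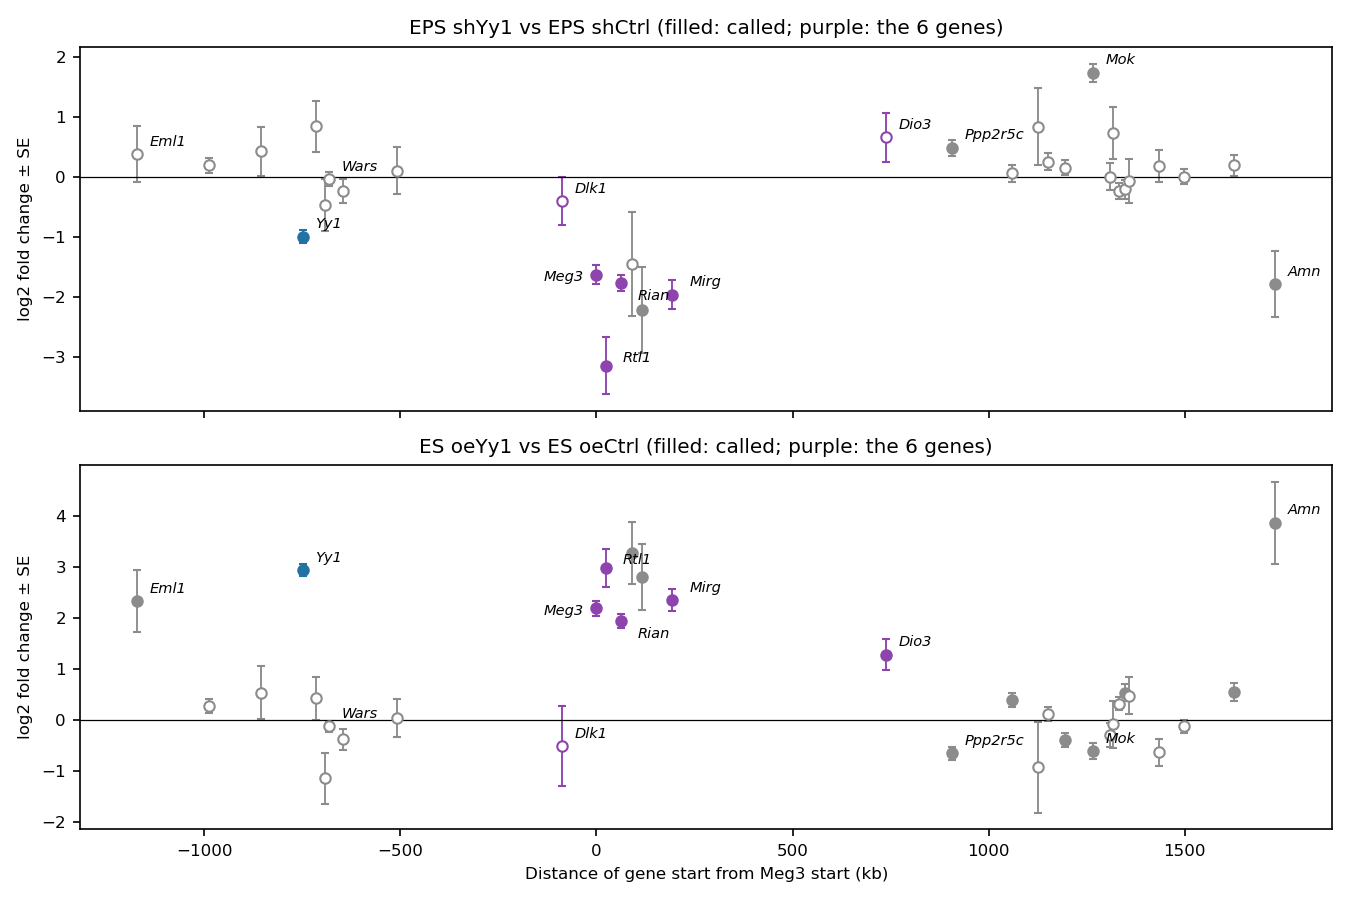
Log2 fold change ± SE (vertical axis) of each gene tested within 1 Mb of the region, by the distance of its start from the Meg3 start in kb (horizontal axis), for EPS shYy1 against EPS shCtrl (top) and ES oeYy1 against ES oeCtrl (bottom). Filled points are called, purple points are the 6 genes and the blue point is Yy1. Meg3, Rtl1, Rian and Mirg lie near -1.63 to -3.14 in the top panel and 1.93 to 2.97 in the bottom panel, whereas most neighbours lie near 0.

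Imprinted genes outside the region were called in both directions, to be read beside 28.5% of all genes with depletion and 32.0% with overexpression. Of 40 tested, 8 were higher and 8 lower in EPS shYy1 against EPS shCtrl cells, and 11 were higher and 9 lower in ES oeYy1 against ES oeCtrl cells, with medians of log2 0.26 and 0.24. Mest, a paternally expressed hydrolase-like gene, was lower with depletion (log2 -1.66 ± 0.22) and higher with overexpression (1.90 ± 0.21), as the noncoding RNAs were. Plagl1, a paternally expressed zinc finger gene, was higher with depletion (2.38 ± 0.18), and Grb10, an imprinted adaptor of growth factor receptors, was lower (-1.48 ± 0.17). Impact was lower with overexpression (-1.24 ± 0.16). Between EPS and ES cells, where 30.6% of all genes were called, 8 were higher and 6 lower, among them Phlda2 (2.84) and Ddc (-2.49).

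Some genes of a list for imprint control and DNA methylation were also called. This list also holds genes such as Tet1, Tdg and Ezh2, so its counts are not those of imprint guards alone. Of 21 tested, 2 were higher, 10 lower and 9 not called in EPS shYy1 against EPS shCtrl cells, where 28.5% of all genes were called. With overexpression 7 were higher, 3 lower and 11 not called in ES oeYy1 against ES oeCtrl cells, where 32.0% of all genes were called. Dnmt3l, the cofactor of the de novo methyltransferases, was lower with depletion (log2 -2.73 ± 0.29) and higher with overexpression (6.42 ± 0.35). Zfp57, a zinc finger protein that protects imprints, was lower with depletion (-0.85 ± 0.14) and higher with overexpression (0.93 ± 0.14), and Dnmt3a came to -1.27 ± 0.15 and 1.06 ± 0.17. DNA methylation at the region was not analysed here, and the part of these genes in the levels of Meg3 was not tested.

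Lists tied to the function of the coding members gave mixed counts. The shares of all genes called were 28.5% with depletion and 32.0% with overexpression, and 61.3% and 41.9% on day 6. Of 13 Notch receptors, ligands and targets tested beside Dlk1, 2 were higher and 2 lower with depletion, and 3 higher and 1 lower with overexpression. On day 6, where Dlk1 was lower in both contrasts, 4 of 14 were higher and 10 lower in EPS shYy1 cells, and 9 were higher and 4 lower in ES oeYy1 cells, each against its control. Of 11 genes of thyroid hormone handling tested beside Dio3, 1 was higher and 1 lower with depletion, the lower one being Crym (log2 -1.66 ± 0.55), and 3 were higher with overexpression. Among these were Crym, which binds thyroid hormone in the cytosol (log2 6.17 ± 0.51), and the transporter Slc16a10 (1.47 ± 0.32).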

How the data were processed

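The authors deposited 1 table of raw read counts per gene for each of 22 RNA-seq libraries, and the other 41 of 63 samples were not analysed here. The submitters' processing notes name CASAVA, Bowtie2 2.3.2 and the builds mm10 and GRCm38.p6, with no role stated, and the counting tool and its strand setting are not given in the sources used here. Lines that name no gene were kept out of totals and tests (no feature 5.61 to 8.62% of the counted reads, ambiguous 3.70 to 5.32%, not unique 5.45 to 6.66%). Gene counts totalled 13672061 to 20782348 per library, and floors of 3 counts cover counting error only.

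Counts were tested with edgeR 4.0.16 (TMM scaling, filterByExpr, robust quasi-likelihood) in R 4.3.3 with limma 3.58.1, with Benjamini-Hochberg adjustment over all genes tested. There was 1 model for the 14 undifferentiated libraries, 1 for the 8 day 6 libraries and 1 for 16 libraries of both stages from the lines with constructs. The SE is the size of the log2 fold change divided by the square root of F. The procedure was tested on simulated data. The 6 genes, the lists and the tests were chosen with earlier results of these data known. The 6 genes were named throughout, with called neighbours within 1 Mb, up to 4 called genes of smallest p per other list, and the 5 genes most like Meg3 and the 5 most like Dlk1 by Pearson correlation of log2 CPM (prior count 2). The lists were fibroblast, endoderm, mesendoderm, neural, trophoblast and pluripotency markers. The others were imprint control and DNA methylation, imprinted genes outside the region, Notch and thyroid hormone genes. Symbols were matched to RefSeq of GRCm38.p6 (33563 of 47517).

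EPS and ES libraries of the same replicate number deviated together from their group means (r = 0.241, 0.319 and 0.544 over genes), and adding the number as a block changed no call of the 6 genes between EPS and ES. No pair of replicates agreed within sampling noise. Alternatives were other scaling, no filter, a replicate block, only the groups compared, DESeq2 1.42.0 and leaving out each library.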

Additional observations from a re-analysis of the deposited data

Results flagged for a closer look

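The effect of each Yy1 manipulation differed between undifferentiated cells and day 6 of F4H, by an interaction term in edgeR's quasi-likelihood test over 16 libraries with Benjamini-Hochberg adjustment. Values are the log2 effect on day 6 minus the log2 effect in undifferentiated cells.

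For shYy1 against shCtrl the change was 1.34 ± 0.16 (SE) for Meg3 (adjusted p = 2.02e-06), 1.53 ± 0.14 for Rian (adjusted p = 8.38e-08), 1.54 ± 0.26 for Mirg (adjusted p = 8.45e-05) and 2.68 ± 0.58 for Rtl1 (adjusted p = 8.78e-04). For Dlk1 it was -0.73 ± 0.26 (adjusted p = 0.0277), a call kept in 10 of 14 alternatives, and -0.49 without EPS shYy1 replicate 2. Dio3 did not pass (adjusted p = 0.834).

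For oeYy1 against oeCtrl the change was -1.16 ± 0.15 for Meg3 (adjusted p = 1.05e-05), -1.41 ± 0.14 for Rian (adjusted p = 2.71e-07), -1.60 ± 0.24 for Mirg (adjusted p = 3.1e-05), -2.02 ± 0.51 for Rtl1 (adjusted p = 0.00342) and -1.59 ± 0.38 for Dio3 (adjusted p = 0.00221). Dlk1 did not pass (adjusted p = 0.76). The difference of the manipulations on Yy1 itself also changed, by 0.95 ± 0.10 for shYy1 and -1.60 ± 0.10 for oeYy1, and its part in these values was not tested.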

How the results depend on the processing

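Of 84 pairs of a gene and a comparison 63 were called, and 55 of these kept call and direction in every alternative. Leaving out X-linked and Y-linked genes was chosen after seeing the data. Dlk1 in ES oeYy1 against ES oeCtrl cells gave no value in the fit of only the groups compared, where it failed the filter. The number of the 6 genes called changed by over 1.5 times only for ES oeCtrl against ES, from 2 to 4 without ES replicate 3. Calls that were lost in at least 1 alternative were Dio3 with overexpression, Mirg in EPS shCtrl against EPS and Rtl1 in day 6 ES oeYy1 against oeCtrl. Also lost in at least 1 were Rtl1 in day 6 EPS shCtrl against ES oeCtrl, Rtl1 by day in EPS shCtrl, Dio3 by day in EPS shYy1 and Mirg by day in ES oeCtrl. The stage change of the shYy1 effect on Dlk1 kept its call in only 10 of 14 alternatives and was -0.49 without EPS shYy1 replicate 2.

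Signs turned for values that the reported fit did not call, and 1 of the turned values was itself called, Rian by day in EPS shCtrl without EPS shCtrl replicate 2 (0.20, adjusted p = 0.024). With a library left out Dlk1 ranged from -0.15 to 0.43 in EPS against ES, from -1.58 to 0.19 in ES oeYy1 against ES oeCtrl and from -0.245 to 0.28 in EPS shCtrl against EPS. By day in EPS shCtrl Rian ranged from -0.16 to 0.20 and Mirg from -0.17 to 0.53, and in ES oeCtrl Dio3 ranged from -0.0596 to 0.395. The stage change ranged from -0.49 to 0.12 for Dio3 under shYy1 and from -1.01 to 0.80 for Dlk1 under oeYy1. Rian by day in EPS shCtrl was 0.0045 with no filter.

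Outside EPS and ES, numbers shared by groups of 2 showed correlations of -0.067 to 0.12. With the replicate block Dlk1 in EPS shCtrl against EPS came to 0.17 (adjusted p = 0.649), Mirg in ES oeCtrl against ES was called (adjusted p = 0.00982) and Rtl1 by day in EPS shCtrl was not (adjusted p = 0.0515). The block changed no other call. Over all genes, 4682 were called with shYy1 against 2618 and 2703 without shYy1 replicate 1 or 2 and 2571 without shCtrl replicate 2. With oeYy1 5255 were called, against 8149 with only the groups compared, 3378 and 3065 without oeYy1 replicate 1 or 2, and 3290 without oeCtrl replicate 1. At 2 to 49 reads, Rtl1 in the EPS hairpin lines and Dlk1 in the ES construct lines are limited by depth.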
